A study of Mus musculus with 9 samples.

Results

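The 10 genes described here encode transcription factors that build and hold the B cell programme: Ebf1, Pax5, Tcf3, Foxo1, Ikzf1, Ikzf3, Bach2, Lef1, Sox4 and Myb. They were chosen by symbol, as 10 of the 23279 gene rows of the expression tables, and all 10 were among the 10878 rows expressed highly enough to be tested. Their RNA was measured in 9 libraries of primary mouse pro-B cell cultures, with 3 Ts1Rhr, 3 HMGN1-overexpressing and 3 wild-type libraries. Marrow of mice aged 6 to 8 weeks had its red cells lysed and was grown in methylcellulose with interleukin-7, and the colonies were pooled after 7 days. Each RNA sample came from an equal number of cells and received 1 µl of a 1 in 1000 dilution of synthetic ERCC spike-in RNAs, added for scaling per cell.

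Ts1Rhr mice have 3 copies of the chromosome 16 stretch between Cbr1 and Fam3b and are on an FVB x C57BL/6 F1 background. This segment includes Hmgn1, which encodes a nucleosome-binding protein. The second mutant group overexpresses Hmgn1 on a C57BL/6 background, called HMGN1 OE below; the sources used here do not name the species or promoter of its transgene. Wild-type littermates form the last group, and the sources used here do not name their background. Between the mutant groups the effects of genotype and strain cannot be told apart, and wild type may differ in strain as well. The labels call the samples of a group biological replicates without naming the animals, so a p-value here covers only sample-to-sample spread, which may be technical. None of the 10 genes lies in the triplicated segment; by RefSeq they sit on chromosomes 3, 4, 10, 11 and 13.

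As background, the E protein encoded by Tcf3 and the forkhead factor Foxo1 act before Ebf1 in lymphoid progenitors, Ebf1 and Foxo1 sustain each other, and Ebf1 induces Pax5. Pax5 then fixes commitment by activating B lineage genes and silencing genes of other lineages. Ikaros family factors, Bach2, Lef1, Sox4 and Myb act alongside this core in progenitor survival, pre-B cell receptor signalling and the repression of myeloid genes.

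Expression is given in FPKM, fragment counts divided by transcript length and by the total of mapped fragments, in a raw table and in a table that the authors normalised further. Normalised FPKM are used unless the raw table is named. A gene was called when limma gave an adjusted p under 0.05 over all 10878 tested genes. Hmgn1 checked the labels: its raw FPKM were 127, 125 and 126 in Ts1Rhr, 77.2, 71.9 and 73.4 in HMGN1 OE, and 60.1, 67.3 and 58.5 in wild type. Both mutant groups lay above wild type, with log2 fold changes of 1.03 in Ts1Rhr (limma adjusted p = 0.00923) and 0.26 in HMGN1 OE (adjusted p = 0.345), the second short of the threshold. Several libraries stood apart from the rest of their group. Wild-type replicate 1 had the highest ribosomal Rn45s value, 10510 raw FPKM against at most 4495 elsewhere, and its 10 most abundant genes held 23.1% of the raw sum against at most 18.1% elsewhere. HMGN1 OE replicate 2 had the highest myeloid marker level of its group, and Ts1Rhr replicate 3 was the only library with high Ddx3y (41.8 raw FPKM) and low Xist (0.443 raw FPKM, against at least 94.2 elsewhere). Results without each of them are given below.

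All 10 transcription factors averaged more RNA in Ts1Rhr than in wild type, by 1.27-fold (Ikzf1) to 1.97-fold (Lef1), and none was called. Of the 10878 tested genes 59.9% had a log2 fold change above 0, 0.423% were called higher and 0.147% were called lower. The median log2 fold change of the 10 was 0.54, beside 0.12 over all tested genes. Unadjusted p was under 0.05 and higher for 6 of the 10, beside 13.2% of all tested genes. The Ts1Rhr libraries all lay above the wild-type libraries for 8 of the 10, beside 21.7% of all tested genes; Pax5 and Myb overlapped. The smallest adjusted p was 0.0772, for Lef1.

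The HMGN1 OE comparison with wild type uses the same 3 wild-type libraries, so both comparisons move with them. All 10 again averaged above wild type, by 1.26-fold (Ikzf1) to 2.01-fold (Lef1), and none was called. Of all tested genes 72.7% had a log2 fold change above 0, 0.00919% were called higher and 0.0827% lower. The median log2 fold change was 0.52, beside 0.21 over all tested genes. Unadjusted p was under 0.05 for 6 of the 10, beside 10.9% of all genes in the higher direction. The groups did not overlap for 9 of the 10, beside 16.6% of all genes; Ikzf1 overlapped. Relative to the medians over all genes, the log2 fold changes of the 10 ran from 0.22 (Ikzf1) to 0.86 (Lef1) in Ts1Rhr and from 0.13 (Ikzf1) to 0.80 (Lef1) in HMGN1 OE.

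**Figure D1:**
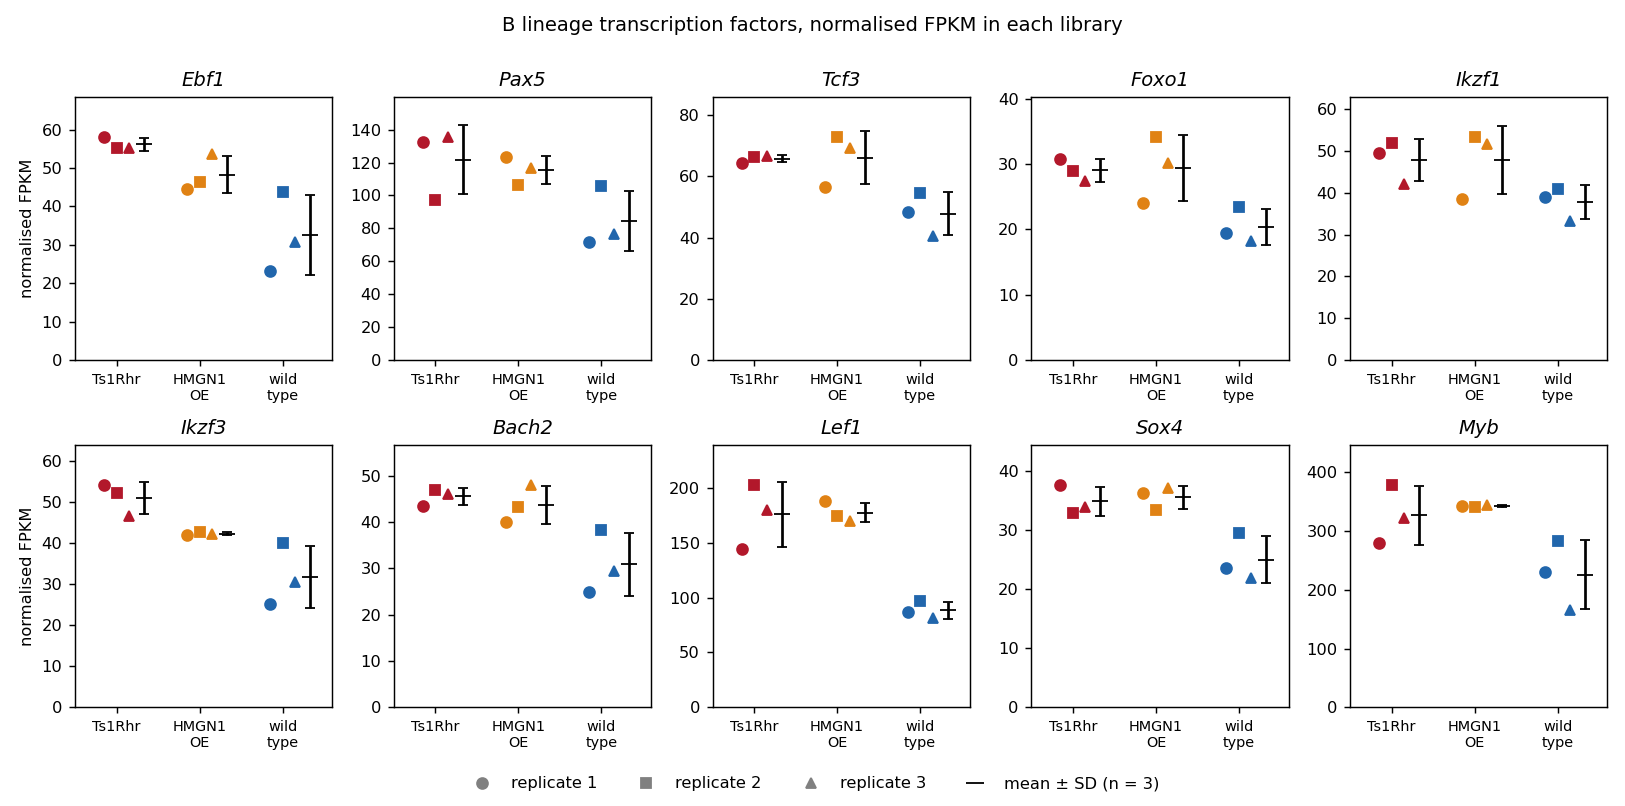
Normalised FPKM (vertical axes, linear from 0) of the 10 transcription factors in Ts1Rhr, HMGN1 OE and wild type; each symbol is 1 library and the bars are mean ± SD (n = 3). Lef1 has the widest separation, with all mutant libraries at 145 or more and all wild-type libraries at 96.8 or less, while wild-type replicate 2 (squares) is the highest wild-type library for all 10.

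Ebf1, the factor that opens B lineage chromatin and specifies the lineage, had 58.1, 55.2 and 55.4 FPKM in Ts1Rhr, 44.5, 46.5 and 53.8 in HMGN1 OE, and 23.3, 43.8 and 30.6 in wild type. The Ts1Rhr libraries lay close together and above every other library, and the lowest HMGN1 OE library was just above the highest wild-type one. Its fold over wild type was 1.78 in Ts1Rhr (95% interval 1.23 to 2.58, adjusted p = 0.115) and 1.53 in HMGN1 OE (1.05 to 2.21, adjusted p = 0.367).

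Pax5, which Ebf1 induces and which fixes B cell identity, had 132, 97.6 and 135 FPKM in Ts1Rhr, 124, 106 and 117 in HMGN1 OE, and 71.8, 106 and 76.6 in wild type. Wild-type replicate 2 exceeded 1 Ts1Rhr library and came within 1 FPKM of the lowest HMGN1 OE library. The fold was 1.44 in Ts1Rhr (0.989 to 2.11, adjusted p = 0.268) and 1.38 in HMGN1 OE (0.945 to 2.02, adjusted p = 0.489).

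Tcf3 encodes the E proteins E12 and E47, which are kept from DNA by Id proteins. It had 64.4, 66.5 and 66.6 FPKM in Ts1Rhr, 56.5, 72.8 and 69.2 in HMGN1 OE, and 48.3, 54.7 and 40.5 in wild type. Both mutant groups lay above wild type without overlap, by 1.39-fold in Ts1Rhr (adjusted p = 0.275) and 1.39-fold in HMGN1 OE (adjusted p = 0.444). The related E protein genes Tcf12 and Tcf4 averaged 37.1 ± 5.04 and 45.5 ± 3.14 FPKM in Ts1Rhr, 35.7 ± 7.39 and 43.1 ± 6.95 in HMGN1 OE, and 27.6 ± 3.02 and 31.3 ± 4.49 in wild type (SD, n = 3), with no call.

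The Id antagonists ran the other way in Ts1Rhr. Id1 had 9.60, 4.77 and 1.80 FPKM in Ts1Rhr, 15.6, 20.9 and 6.39 in HMGN1 OE, and 20.2, 22.0 and 14.2 in wild type. Ts1Rhr lay below wild type throughout while HMGN1 OE overlapped it, with folds of 0.236 (adjusted p = 0.0590) and 0.692 (adjusted p = 0.668). On raw FPKM Id1 fell in Ts1Rhr, to 4.83 ± 3.06 against 19.6 ± 2.75 in wild type (fold 0.216, adjusted p = 0.0325). Id2 averaged 573 ± 187 FPKM in Ts1Rhr, 1293 ± 789 in HMGN1 OE and 1559 ± 881 in wild type, and Id3 averaged 282 ± 90.9, 538 ± 206 and 533 ± 222 in the same groups, with no call in either table. Id genes are also expressed by myeloid cells, whose markers ran the same way, as given below. Of the 6 listed E protein and Id genes, 5 were tested and 1 was called, Id1 on raw FPKM, beside 4.56% of all genes called lower; Id4 was 0 in all raw libraries.

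**Figure D2:**
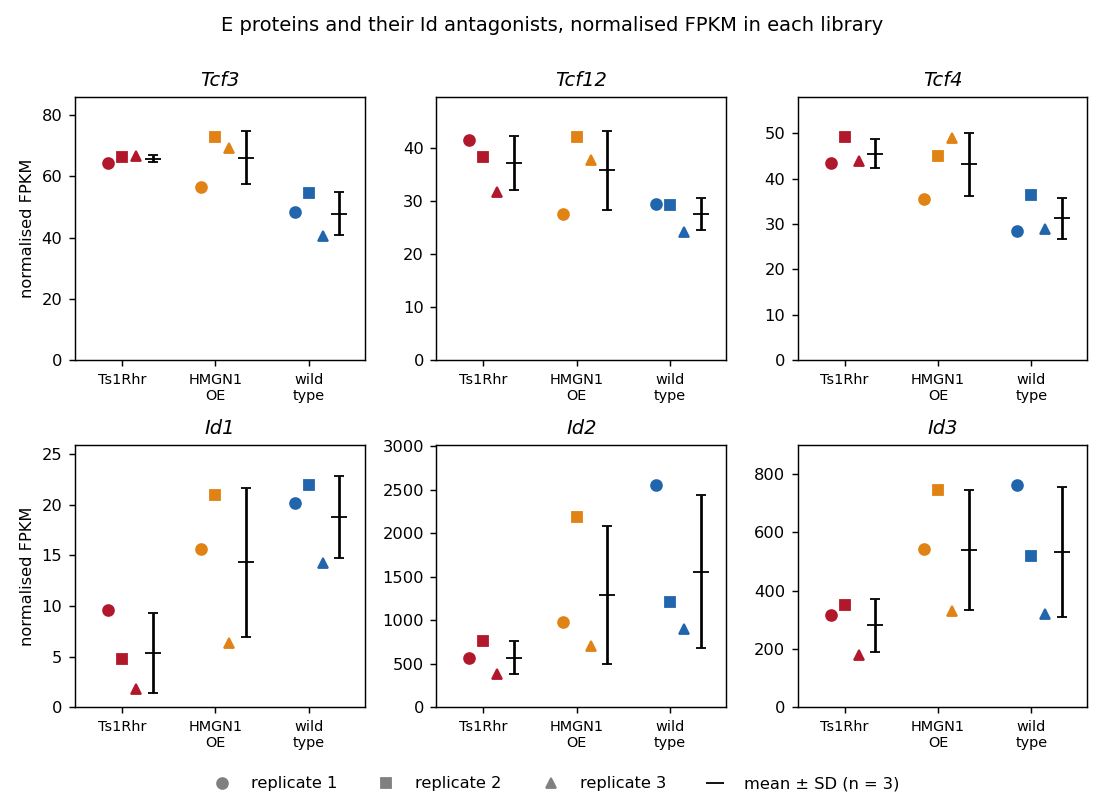
Normalised FPKM (vertical axes, linear from 0) of the E protein genes Tcf3, Tcf12 and Tcf4 and of the Id genes Id1, Id2 and Id3 in Ts1Rhr, HMGN1 OE and wild type; symbols are libraries and bars are mean ± SD (n = 3). Tcf3 in Ts1Rhr (64.4 to 66.6) lies above wild type (40.5 to 54.7), while Id1 in Ts1Rhr (1.80 to 9.60) lies below it (14.2 to 22.0).

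Foxo1, which drives Rag1, Rag2 and Il7r in B cell progenitors, had the lowest level of the 10 in every group. It had 30.8, 29.0 and 27.4 FPKM in Ts1Rhr, 24.0, 34.1 and 30.1 in HMGN1 OE, and 19.4, 23.4 and 18.2 in wild type. Neither mutant group overlapped wild type, although HMGN1 OE replicate 1 was within 1 FPKM of the highest wild-type library. The folds were 1.43 in Ts1Rhr (1.03 to 2.00, adjusted p = 0.224) and 1.44 in HMGN1 OE (1.03 to 2.01, adjusted p = 0.393).

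Promoter letters were read from RefSeq (build GRCm38.p6) for the 250 bases before each annotated start, for 9 of the 10 genes and 14 starts; Ikzf3 had no entry. Short motifs of the factors themselves were searched on both strands. The Foxo1 window is shown because it is the only one of the 14 with a perfect Ebf1 palindrome, which 0.779% of 32851 promoter windows hold. It also has the Myb core TAACNG, held by 19.8% of windows. The Lef1 window is shown because Lef1 had the largest differences; its first start has 1 match, to TAACNG. Both are on the plus strand, at chr3:52268087-52268336 for Foxo1 and chr3:131110047-131110296 for Lef1, with the matches in capitals.
Foxo1: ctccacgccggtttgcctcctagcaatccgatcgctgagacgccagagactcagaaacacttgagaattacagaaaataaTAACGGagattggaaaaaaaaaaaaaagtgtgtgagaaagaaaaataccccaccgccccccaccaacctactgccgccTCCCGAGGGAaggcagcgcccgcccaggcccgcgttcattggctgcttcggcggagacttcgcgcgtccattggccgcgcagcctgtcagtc
Lef1: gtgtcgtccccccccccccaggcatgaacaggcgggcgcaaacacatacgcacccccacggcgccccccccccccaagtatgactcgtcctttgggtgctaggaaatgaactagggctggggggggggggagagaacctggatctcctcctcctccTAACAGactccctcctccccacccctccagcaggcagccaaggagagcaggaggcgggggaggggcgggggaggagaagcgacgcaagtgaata

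In Foxo1 the Ebf1-type palindrome starts 92 bases before the start site and the Myb core 170 bases before it; in Lef1 the Myb core starts 94 bases before. Among the 9 genes, the E-box CAGCTG was found in 2 (13% of all windows), the Ikaros core TGGGAA in 2 (21.6%), the Lef and Tcf core CTTTGA in 2 (13.8%), the Sox core CTTTGT in 3 (16.5%) and the Myb core in 2. The percentages are per window, and of the 14 windows these motifs were in 2, 2, 2, 4 and 3, in the same order. The Foxo site TGTTTAC (3.17% of windows) and the Bach and Maf core TGAGTCA (4.46%) were in none of the 9. CTTTGA and CTTTGT share 5 letters but cannot match at the same place. The windows of the first and second Lef1 starts overlap, so their Myb core is the same letters.

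Ikzf1 encodes Ikaros and Ikzf3 encodes Aiolos, zinc finger repressors of the pre-B cell stage. Ikzf1 had 49.4, 51.9 and 42.1 FPKM in Ts1Rhr, 38.5, 53.3 and 51.7 in HMGN1 OE, and 39.0, 40.9 and 33.1 in wild type. It had the smallest differences of the 10, with folds of 1.27 in Ts1Rhr (0.900 to 1.79, adjusted p = 0.423) and 1.26 in HMGN1 OE (0.895 to 1.78, adjusted p = 0.582). Ikzf3 had 54.1, 52.1 and 46.6 FPKM in Ts1Rhr, 41.8, 42.6 and 42.1 in HMGN1 OE, and 25.0, 39.9 and 30.5 in wild type. Its groups were ordered without overlap, Ts1Rhr above HMGN1 OE above wild type, with folds over wild type of 1.63 in Ts1Rhr (1.15 to 2.30, adjusted p = 0.139) and 1.35 in HMGN1 OE (0.958 to 1.91, adjusted p = 0.477).

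Bach2, a repressor of myeloid genes in lymphoid progenitors that also guards the pre-B cell checkpoint, had 43.5, 46.9 and 46.2 FPKM in Ts1Rhr, 39.9, 43.3 and 48.1 in HMGN1 OE, and 24.9, 38.3 and 29.4 in wild type. All mutant libraries were above the highest wild-type library. The folds were 1.50 in Ts1Rhr (1.07 to 2.11, adjusted p = 0.192) and 1.44 in HMGN1 OE (1.02 to 2.02, adjusted p = 0.399).

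Lef1, an HMG box factor that acts with β-catenin in Wnt signalling and supports pro-B cell growth, differed most. It had 145, 203 and 179.7 FPKM in Ts1Rhr, 187, 175 and 170.0 in HMGN1 OE, and 86.8, 96.8 and 81.3 in wild type. Every mutant library exceeded every wild-type library by more than the whole wild-type range. The fold was 1.97 in Ts1Rhr (1.36 to 2.86, unadjusted p = 0.00122, adjusted p = 0.0772) and 2.01 in HMGN1 OE (1.39 to 2.91, unadjusted p = 0.000971, adjusted p = 0.211). Its log2 fold change stood at percentile 95.9 of all tested genes in Ts1Rhr and 97.8 in HMGN1 OE.

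Sox4, another HMG box factor needed for the survival of pro-B cells, had 37.6, 32.9 and 33.9 FPKM in Ts1Rhr, 36.3, 33.3 and 37.0 in HMGN1 OE, and 23.6, 29.5 and 21.9 in wild type. The mutant groups covered the same range and both lay above wild type. The fold was 1.40 in Ts1Rhr (adjusted p = 0.237) and 1.43 in HMGN1 OE (adjusted p = 0.387).

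Myb, a progenitor factor that sustains pro-B cells, was the most abundant of the 10. It had 279, 378 and 322 FPKM in Ts1Rhr, 342, 339.8 and 344 in HMGN1 OE, and 229, 283 and 165 in wild type. HMGN1 OE libraries nearly coincided, and 1 wild-type library exceeded the lowest Ts1Rhr library. The fold was 1.47 in Ts1Rhr (0.952 to 2.27, adjusted p = 0.307) and 1.55 in HMGN1 OE (1.01 to 2.39, adjusted p = 0.420).

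**Figure D3:**
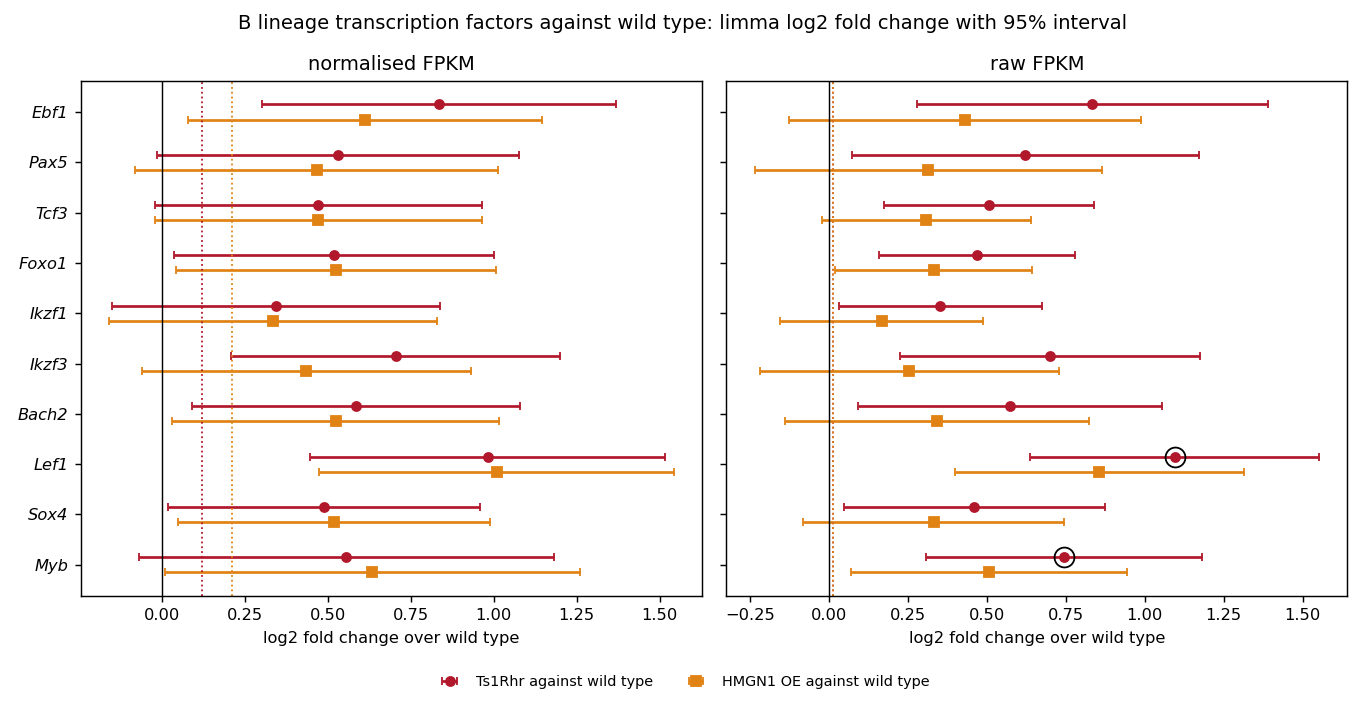
Log2 fold change over wild type (horizontal axes) of each transcription factor with its 95% limma interval, for Ts1Rhr (red circles) and HMGN1 OE (orange squares), on normalised FPKM (left) and raw FPKM (right). Dotted lines are the medians over all tested genes and black rings mark the 2 calls, Lef1 and Myb in Ts1Rhr on raw FPKM; every point lies right of 0.

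FPKM are per length, so levels can be ordered between genes. In all 3 groups Myb came first, at 326 ± 50.0 FPKM in Ts1Rhr, 342 ± 2.05 in HMGN1 OE and 226 ± 59.0 in wild type (SD, n = 3), and Foxo1 last, at 29.0 ± 1.73, 29.4 ± 5.08 and 20.4 ± 2.74. Lef1, Pax5 and Tcf3 followed Myb by mean, in this order, in each group. Lef1 lay above Pax5 without overlap in Ts1Rhr and HMGN1 OE, while in wild type they overlapped, with means of 88.3 and 84.7 FPKM. Tcf3 lay above the next gene without overlap in both mutant groups but not in wild type. From Tcf3 down, every wild-type gene overlapped the next in the order. These are ranges over libraries, and the order within single libraries was firmer. Tcf3 had rank 4 in every library of all 3 groups. Foxo1 had rank 10 in every Ts1Rhr and wild-type library, and rank 9 or 10 in HMGN1 OE. All 10 were well expressed, at percentiles 73.6 to 98.5 of the tested genes in Ts1Rhr, 71.0 to 98.1 in HMGN1 OE and 64.9 to 97.1 in wild type.

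On raw FPKM, which carry no spike-in scaling, all 10 lay above wild type in Ts1Rhr with no overlap, beside 19.1% of all tested genes, and 2 of the 10 rose past the threshold, beside 4.29% of all genes. Of all genes 51% had a log2 fold change above 0, and 15.4% had an unadjusted p under 0.05 in that direction, as all 10 had. Lef1 had 147, 211 and 197 raw FPKM in Ts1Rhr against 68.1, 89.5 and 103 in wild type, a fold of 2.14 (1.55 to 2.93, adjusted p = 0.0309). Myb had 301, 398 and 351 raw FPKM in Ts1Rhr against 169, 252 and 211 in wild type, a fold of 1.68 (1.24 to 2.27, adjusted p = 0.0460). The median log2 fold change of the 10 was 0.60, beside 0.01 over all genes. Neither call held without wild-type replicate 1, wild-type replicate 3, Ts1Rhr replicate 2 or Ts1Rhr replicate 3, each of which left 0 of the 10 called, and Myb was not called without Ts1Rhr replicate 1 or HMGN1 OE replicate 1. Without the library set apart by Ddx3y and Xist, Ts1Rhr replicate 3, the median log2 fold change was 0.51 on raw and 0.56 on normalised FPKM, and all 10 stayed above wild type.

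In HMGN1 OE on raw FPKM all 10 averaged above wild type, with a median log2 fold change of 0.33, but none was called. Of all genes 51.6% had a log2 fold change above 0, 0 were called higher and 0.0368% were called lower. Lef1 had 181, 123 and 167 raw FPKM in HMGN1 OE against 68.1, 89.5 and 103 in wild type (fold 1.81, 1.32 to 2.49, adjusted p = 0.227). Lef1 and Foxo1 were the 2 of the 10 without overlap, beside 9.81% of all genes. Unadjusted p was under 0.05 for 3 of the 10, beside 7.18% of all genes in the higher direction. HMGN1 OE replicate 2 was the lowest of its group for all 10, and without it the median was 0.52. Wild-type replicate 1 was the lowest of all 9 libraries for all 10, and without it the HMGN1 OE median was 0.15, with Ikzf3 at -0.01, and the Ts1Rhr median was 0.38. On normalised FPKM the medians without wild-type replicate 1 were 0.49 in Ts1Rhr and 0.44 in HMGN1 OE, and all 10 stayed above wild type in both.

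Between the mutant groups no gene of any kind was called in either table, and none of the 10 had an unadjusted p under 0.05, beside 0.864% of all genes in the higher direction on normalised FPKM and 3.9% on raw FPKM. On normalised FPKM 6 of the 10 had a log2 fold change above 0, beside 37.5% of all genes, but Tcf3 and Ikzf1 were above it by less than 0.01 and their mean FPKM were lower in Ts1Rhr. The log2 fold changes of Ts1Rhr over HMGN1 OE ran from -0.08 for Myb (95% interval -0.71 to 0.55) to 0.27 for Ikzf3 (-0.23 to 0.77). For Lef1 the value was -0.03 (-0.56 to 0.51) and for Ebf1 0.22 (-0.31 to 0.76). Over the 10, the upper bounds ran from 0.44 (Sox4) to 0.77 (Ikzf3). Ebf1 and Ikzf3 were the 2 without overlap, both higher in Ts1Rhr, beside 1.79% of all genes. On raw FPKM all 10 had a log2 fold change above 0, with a median of 0.23, beside 50.3% of all genes, and Ebf1 and Ikzf3 were again the 2 without overlap, beside 6.89% of all genes. Foxo1, Lef1, Sox4 and Myb thus had opposite signs in the 2 tables.

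Against wild type, myeloid markers ran opposite to the 10 factors. A myeloid level, the mean log2(raw FPKM + 0.1) of 18 myeloid markers, was 5.31 to 5.86 in Ts1Rhr, 5.22 to 6.48 in HMGN1 OE and 6.29 to 6.82 in wild type. The same mean over the 10 transcription factors was 6.08 to 6.23 in Ts1Rhr, 5.63 to 6.08 in HMGN1 OE and 5.15 to 5.75 in wild type. In each group the library with the highest myeloid level (Ts1Rhr replicate 1, HMGN1 OE replicate 2 and wild-type replicate 1) had the lowest transcription factor level on raw FPKM. On normalised FPKM these libraries were, in the same order, the lowest of their group for 4, 3 and 4 of the 10. They were the highest of their group for 4, 4 and 0. All 18 tested myeloid markers had log2 fold changes below 0 in Ts1Rhr and in HMGN1 OE in both tables, although the mean FPKM of Mpo was above wild type in HMGN1 OE. In Ts1Rhr on raw FPKM 7 of the 18 fell past the threshold (Cd68, Csf1r, Ctss, Emr1, Fcgr3, Mrc1 and Tyrobp), beside 4.56% of all genes called lower. In bulk RNA, fewer cells of a type and less RNA per cell cannot be told apart. The sum of 20 myeloid markers was 16461 to 18752 raw FPKM in Ts1Rhr, 14832 to 30989 in HMGN1 OE and 25764 to 38709 in wild type, so all libraries held myeloid RNA. Most of this sum was Lyz2, which averaged 14596, 17992 and 23715 raw FPKM in the same groups. The part of the myeloid level in the differences of the 10 was not tested beyond the covariate fits below.

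**Figure D4:**
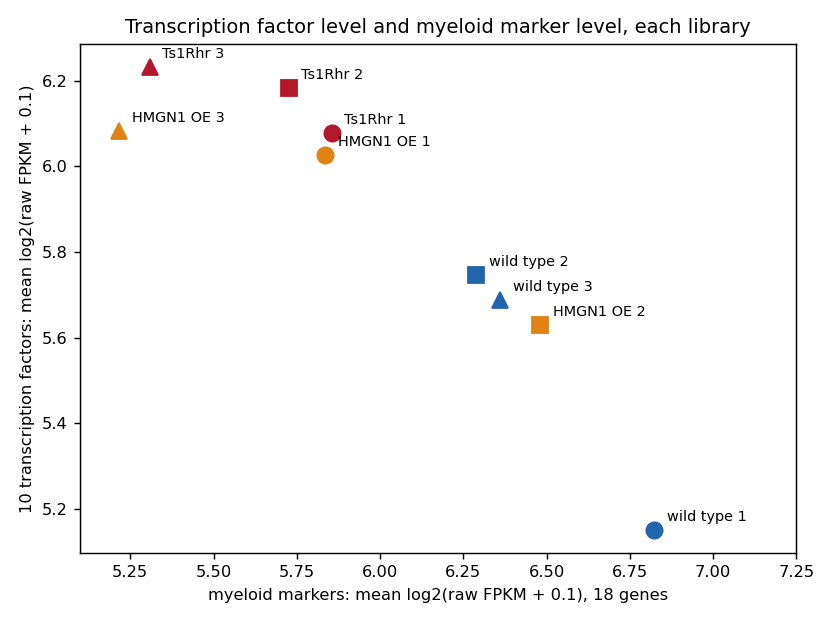
Mean log2(raw FPKM + 0.1) of the 10 transcription factors (vertical axis) against that of 18 myeloid markers (horizontal axis); each symbol is 1 library, red for Ts1Rhr, orange for HMGN1 OE and blue for wild type. Wild-type replicate 1 lies lowest and farthest right, at 5.15 and 6.82, and HMGN1 OE replicate 2 lies among the wild-type libraries.

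The markers of a B cell progenitor were present in every library: all 11 listed B lineage markers reached 1 raw FPKM, and their sum was 1707 to 2267 in Ts1Rhr, 2089 to 2840 in HMGN1 OE and 1546 to 1980 in wild type. Their mean log2(raw FPKM + 0.1) was 6.73 to 6.96 in Ts1Rhr, 6.77 to 7.15 in HMGN1 OE and 6.25 to 6.66 in wild type. On raw FPKM in Ts1Rhr, Dntt, Igll1, Rag2 and Vpreb1 rose, 4 of 11 beside 4.29% of all genes, and 0 fell. None of the 11 was called in HMGN1 OE or on normalised FPKM. Stromal and matrix markers summed to 6.38 to 14.7 raw FPKM in Ts1Rhr, 4.63 to 13.2 in HMGN1 OE and 61.5 to 90.5 in wild type, and Bgn, Col1a2, Lox and Sparc fell in both mutant groups on normalised FPKM. These are all 4 tested of the 8 listed, beside 0.147% of all genes called lower in Ts1Rhr and 0.0827% in HMGN1 OE. On raw FPKM all 4 fell in Ts1Rhr, beside 4.56% of all genes. In HMGN1 OE only Lox and Sparc fell on raw FPKM, beside 0.0368%. T and NK cell markers summed to 2.07 to 3.97 raw FPKM in Ts1Rhr, 1.46 to 5.34 in HMGN1 OE and 2.82 to 4.27 in wild type, with Cd3d and Cd3e below 1 in all libraries. Dendritic markers, nearly all Itgax, summed to 28.2 to 31.0 raw FPKM in Ts1Rhr, 26.2 to 41.1 in HMGN1 OE and 35.1 to 46.8 in wild type. Megakaryocyte markers, nearly all Pf4, summed to 7.34 to 15.8, 9.02 to 25.0 and 27.8 to 36.4 in the same groups, and Pf4 fell in Ts1Rhr on raw FPKM. Mast cell and basophil markers summed to at most 4.34, and erythroid markers to at most 0.512 with Hba-a1 and Hbb-b1 at 0 throughout.

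Each raw library was also scaled to the mean log2 level of its 11 B lineage markers, some of them targets of these factors. The scaling shifts all genes of a library alike, so it leaves the 10 where they were among all genes. Under it the median log2 fold change of the 10 was 0.17 in Ts1Rhr, beside -0.41 over all tested genes, and -0.20 in HMGN1 OE, beside -0.52. In Ts1Rhr 1 of the 10 (Ikzf1, at -0.07) was below 0, beside 83.2% of all genes, and in HMGN1 OE 9 of the 10 were, beside 94.3%. Relative to the B lineage markers, Lef1 was higher than in wild type in both, at 0.67 in Ts1Rhr and 0.32 in HMGN1 OE. None of the 10 was called under this scaling. With the myeloid level as a covariate on raw FPKM, the median was 0.23 in Ts1Rhr with all 10 above 0, and 0.02 in HMGN1 OE with 5 above and 5 below 0. Over all genes the medians were 0.01 in both, and the lowest adjusted p of the 10 was 0.738. In Ts1Rhr this fit cannot separate genotype from the myeloid level, which did not overlap that of wild type. On normalised FPKM the same covariate left medians of 0.58 in Ts1Rhr and 0.50 in HMGN1 OE, with all 10 above 0 in both, beside medians over all genes of 0.37 and 0.34.

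**Figure D5:**
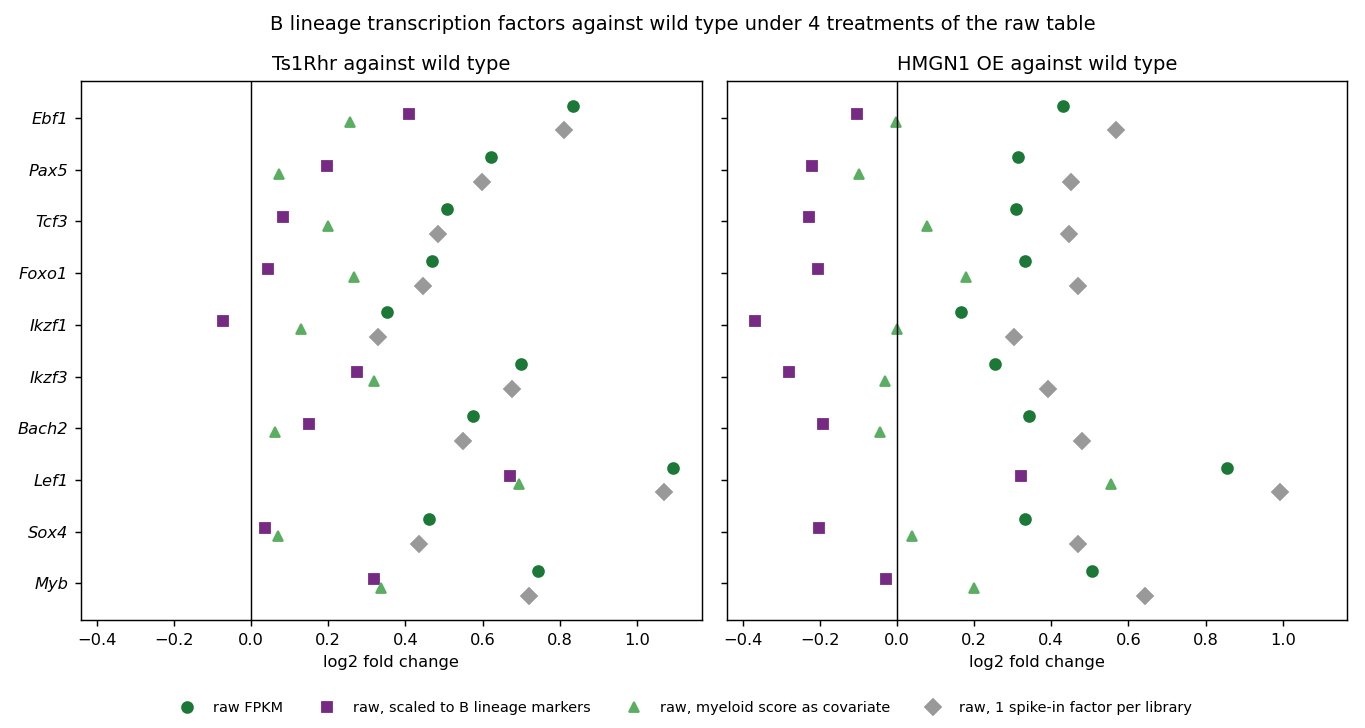
Log2 fold change over wild type (horizontal axes) of each transcription factor in Ts1Rhr (left) and HMGN1 OE (right) under 4 treatments of the raw table, namely raw FPKM (circles), scaling to B lineage markers (squares), a myeloid covariate (triangles) and 1 spike-in factor per library (diamonds). Scaling to B lineage markers moves every gene left by the same amount within a comparison, which takes the median over all genes to -0.41 in Ts1Rhr and -0.52 in HMGN1 OE; Lef1 lies right of 0 throughout.

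Known targets of the factors were measured in the same libraries; their lists overlap with each other and with the B lineage markers. Of 14 genes that Ebf1 or Pax5 activate, 4 rose in Ts1Rhr on raw FPKM and 0 fell, beside the 4.29% of all genes called higher, with a median log2 fold change of 0.31, beside 0.01 over all genes. They were Bst1, Igll1, Nedd9 and Vpreb1; Igll1 and Vpreb1, the surrogate light chain, averaged 105 ± 15.7 and 219 ± 33.6 raw FPKM in Ts1Rhr against 56.2 ± 14.8 and 114 ± 24.4 in wild type (SD, n = 3). Cd79a, a direct target of Ebf1 and Pax5 that encodes a signalling chain of the B cell receptor, averaged 142 ± 6.35 raw FPKM in Ts1Rhr against 123 ± 26.7 in wild type, with no call. In this comparison 10 of the 14 had a log2 fold change above 0, beside 51% of all genes. Below 0 were Cd22 (-0.30), Cd72 (-0.21), Cd79b (-0.07) and Fcrla (-0.02). In HMGN1 OE on raw FPKM none was called, and 12 of the 14 were above 0 with a median of 0.46. On normalised FPKM none of the 14 was called in Ts1Rhr (median 0.17, 9 above 0) or in HMGN1 OE (median 0.61, all 14 above 0), where 59.9% and 72.7% of all genes were above 0.

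Of 6 genes that Pax5 represses, 5 were tested and 2 fell in Ts1Rhr on raw FPKM, beside 4.56% of all genes called lower. Csf1r, the M-CSF receptor gene, had 90.4 ± 23.8 raw FPKM in Ts1Rhr against 193 ± 25.1 in wild type (fold 0.460, adjusted p = 0.0330), and Emb had 51.4 ± 6.14 against 89.0 ± 15.5 (fold 0.580, adjusted p = 0.0464). Csf1r is also on the myeloid list, so these values move with the myeloid level, whose part in them was not tested. None of the 5 was called in HMGN1 OE or on normalised FPKM. In Ts1Rhr on raw FPKM 2 of the 5 had log2 fold changes above 0, Grap2 (0.54) and Notch1 (0.008). Cd28 was below 0 (-0.75) without a call.

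Of 12 Foxo targets 1 was called, Rag2, which with Rag1 cuts antigen receptor genes; 4.29% of all genes were called higher on raw FPKM, so 1 of 12 is near the background. Rag2 averaged 15.4 ± 3.29 raw FPKM in Ts1Rhr, 12.8 ± 2.34 in HMGN1 OE and 7.65 ± 0.537 in wild type (Ts1Rhr fold 1.97, adjusted p = 0.0309). Rag1 averaged 26.8 ± 2.46 raw FPKM in Ts1Rhr, 29.5 ± 4.26 in HMGN1 OE and 26.6 ± 5.97 in wild type, and Il7r 133 ± 13.6, 131 ± 17.2 and 161 ± 14.0 in the same groups. The median log2 fold change of the 12 was 0.08 in Ts1Rhr and 0.07 in HMGN1 OE on raw FPKM, beside 0.01 over all genes.

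Of 17 family relatives 7 were tested. Ebf2, Ebf3, Ebf4, Ikzf2, Ikzf4, Foxo6, Tcf7, Tcf7l1, Sox11 and Sox12 averaged under 1 raw FPKM, with Ebf4 and Sox11 at 0 in all raw libraries. Bach1, Tcf7l2, Foxo3, Ikzf5, Foxo4 and Mybl1 were expressed and not called. Mybl2, a cell cycle relative of Myb, rose in Ts1Rhr on raw FPKM to 15.2 ± 1.79 against 8.47 ± 2.16 in wild type (fold 1.82, adjusted p = 0.0386) and was the only relative called, 1 of 7 beside 4.29% of all genes. Of 14 tested cofactors, 1 rose in Ts1Rhr on raw FPKM, the NuRD deacetylase gene Hdac2, to 84.5 ± 12.4 against 53.7 ± 1.22 in wild type (adjusted p = 0.0374). That is 1 of 14, near the 4.29% of all genes called higher. None of the 14 was called in HMGN1 OE.

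Among 23 other transcription factors with roles in B cells, Erg rose in Ts1Rhr in both tables. It averaged 23.2 ± 2.83 FPKM in Ts1Rhr, 15.5 ± 4.28 in HMGN1 OE and 8.02 ± 1.14 in wild type, and the Ts1Rhr fold was 2.90 (adjusted p = 0.0110). Erg lies in the triplicated segment. Ets1 and Runx1, a partner of Ebf1 in early B cells that lies on chromosome 16 outside the segment, rose in Ts1Rhr on raw FPKM alone, to 194 ± 31.2 and 37.7 ± 9.47 against 112 ± 22.3 and 20.3 ± 2.62 in wild type (adjusted p = 0.0458 and 0.0325). These are 3 of 23 called higher on raw FPKM, beside 4.29% of all genes, and 1 of 23 on normalised FPKM, beside 0.423%. None of the 23 was called in HMGN1 OE. Of 7 tested myeloid transcription factors, all 7 had log2 fold changes below 0 in both mutant groups, and Cebpb, Klf4 and Tfec were among the 4 that fell in Ts1Rhr on raw FPKM, beside 4.56% of all genes.

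Among 8114 other genes, the pattern over the 9 raw libraries most like each factor's was found by the root mean square difference of centred log2 values. Bcl7a was nearest to Tcf3 (0.0371) and Ints1 to Foxo1 (0.0394), and Ubn1 was nearest to Ikzf1 (0.0511). Zbtb11 was nearest to Myb (0.0677), Ablim1 to Bach2 (0.0694), Hp1bp3 to Sox4 (0.0704) and Rrm2 to Ikzf3 (0.0792). By this measure Ebf1, Pax5 and Lef1 had less close neighbours, BC035044 (0.107), Ankrd26 (0.112) and Lmnb1 (0.155). The measure is not scaled to a gene's own spread, and these factors had the largest log2 SD of the 10 (0.489, 0.42 and 0.558). Within the 10, Foxo1 and Tcf3 were the closest pair (0.0623), and Ebf1 and Ikzf3 differed by 0.124. These distances describe shared library effects as well as group differences.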

How the data were processed

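The authors deposited 2 tables in FPKM with 1 column per library. The submitters' processing notes name HISAT, Cufflinks 2.0.0 and build mm9; the sources used here do not give their settings, annotation or strand use. The raw FPKM table, per the labels, precedes spike-in scaling; for the further normalised FPKM table that the authors deposited, the labels state only the aim of scaling per cell. Because FPKM are no counts, depth is unknown and count models were not used.

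Left out of the 23398 rows were 92 spike-ins and 27 rows named by calendar dates. Genes averaging at least 1 raw FPKM were tested, on log2 of the normalised FPKM and log2(raw FPKM + 0.1), so folds of low genes are understated. The test was limma (version 3.58.1, R 4.3.3): 3 group means fitted to the 9 libraries together, with trended variance, two-sided, and Benjamini-Hochberg adjustment across every tested gene at 0.05. It was tested on simulated data. The labels tie replicate numbers to no litter or day, and 2 of 9 same-numbered normalised pairs and 0 of 9 raw pairs correlated above 0.1, so no block was used.

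The genes and lists were chosen with earlier results of these data known, so list counts carry no test. Named were the 10 genes, list genes past the threshold against wild type, some of at most 4 abundant others per list, and genes of the nearest pattern (candidates averaged 5 raw FPKM or more, small RNAs left out). Other genes named beside a count, such as untested relatives, were chosen after their values were seen. The 32 alternatives changed the table, pseudocount, filter, trend, groups fitted, scaling, covariate or block, or left out 1 library. Promoters are RefSeq, GRCm38.p6, not the build of the files, and served for sequence only. By RefSeq, noncoding genes overlap Pax5, Ikzf1, Ikzf3, Bach2 and Sox4, so reads there could be shared if strand was not used.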

Additional observations from a re-analysis of the deposited data

How the results depend on the processing

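The count of the 10 factors called in Ts1Rhr was 0 on normalised FPKM under every alternative, 2 on raw FPKM, 2 with 1 added to raw FPKM and 1 on raw FPKM with a replicate block (Lef1, adjusted p = 0.0449), and ran from 0 to 2 when libraries were left out of the raw table. The count on raw FPKM was 0 with 1 spike-in factor per library (lowest limma adjusted p = 0.0556). With scaling to B lineage markers or the myeloid covariate the raw count was 0 as well. In HMGN1 OE, and between the mutant groups, it was 0 under all 32 alternatives. The cause of the difference between the tables was not tested.

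Against wild type, Ts1Rhr values kept their sign except Ikzf1 with scaling to B lineage markers (-0.072). That scaling shifts all genes alike. HMGN1 OE values turned negative under it for Pax5 (-0.22), Ebf1 (-0.10), Tcf3 (-0.23), Ikzf1 (-0.37), Ikzf3 (-0.28), Foxo1 (-0.20), Bach2 (-0.19), Sox4 (-0.20) and Myb (-0.029), and with the myeloid covariate on raw FPKM for Pax5 (-0.10), Ebf1 (-0.0023), Ikzf1 (-0.00059), Ikzf3 (-0.031) and Bach2 (-0.043). With libraries left out, Ikzf3 in HMGN1 OE ran from -0.014 to 0.61.

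Ts1Rhr over HMGN1 OE turned positive for Foxo1, Lef1, Sox4 and Myb on raw FPKM (0.14, 0.24, 0.13, 0.24; the same with the replicate block), with 1 added (0.13, 0.24, 0.12, 0.24), scaled to B lineage markers (0.25, 0.35, 0.24, 0.35) and with the myeloid covariate on raw FPKM (0.086, 0.14, 0.030, 0.14). Equal library medians gave Foxo1 0.067, Lef1 0.045 and Sox4 0.042, 1 spike-in factor per library gave Lef1 0.078 and Myb 0.078, and the myeloid covariate on normalised FPKM gave Foxo1 0.049. With libraries left out the values ran from -0.0027 to 0.34 (Bach2), -0.14 to 0.19 (Foxo1), -0.14 to 0.29 (Ikzf1), -0.14 to 0.39 (Lef1), -0.19 to 0.35 (Myb), -0.020 to 0.47 (Pax5), -0.086 to 0.26 (Sox4) and -0.11 to 0.29 (Tcf3).

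Over all genes, calls in Ts1Rhr against wild type were 62, and 963 on raw FPKM, 940 with 1 added to it, 8 with no filter, 267 with 2 groups, 693 with equal medians, 2134 scaled to B lineage markers, 2 with the myeloid covariate (1 on raw FPKM), 119 with the replicate block (314 on raw FPKM), and 4 to 203 with libraries left out (1 to 1276 on raw FPKM). In HMGN1 OE they were 10, and 4 on raw FPKM, 19 with 1 added to either table, 4 with no filter, 19 with no trend, 18 with 2 groups, 1807 scaled to B lineage markers, 4 with the myeloid covariate (3 on raw FPKM), 15 with the replicate block (4 on raw FPKM), and 1 to 17 with libraries left out (0 to 12 on raw FPKM). Calls higher against lower in Ts1Rhr were 46 against 16, and 467 against 496 on raw FPKM, 251 against 442 with equal medians, 18 against 24 with 1 spike-in factor and 50 against 2084 scaled to B lineage markers.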

Other observations

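5730488B01Rik, a noncoding RNA whose RefSeq gene overlaps Pax5, had 7.71, 6.70 and 4.95 FPKM in Ts1Rhr, 3.12, 3.58 and 10.7 in HMGN1 OE, and 2.88, 3.33 and 5.06 in wild type. The groups overlapped, and Pax5 itself was at least 71.8 FPKM in every library.

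Summed, the 10 factors took 0.191% to 0.229% of all raw FPKM in Ts1Rhr libraries, 0.133% to 0.210% in HMGN1 OE and 0.0793% to 0.141% in wild type. Relative to its mean, the raw SD of Ebf1 was 4.90% in Ts1Rhr, 21.0% in HMGN1 OE and 34.9% in wild type, and for all 10 genes it was smallest in Ts1Rhr. This did not hold for all genes on normalised FPKM. There Lef1 was 176 ± 29.3 in Ts1Rhr, 177 ± 9.08 in HMGN1 OE and 88.3 ± 7.84 in wild type.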
